A study of Mus musculus with 6 samples.

Results

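The parvins, the kindlins, integrin-linked kinase and the PINCH adaptors form the protein layer that ties the cytoplasmic tail of an integrin to the actin cytoskeleton. They were taken here as a list of 9 genes out of 35865 genes summed from the transcript tables: Parva, Parvb and Parvg, which encode the parvins, Fermt1, Fermt2 and Fermt3, which encode the kindlins, Ilk, which encodes integrin-linked kinase, and Lims1 and Lims2, which encode the PINCH proteins. The list was drawn up with the difference between the genotypes already known, because Parvg was among the genes with the largest rises in Tet2 KO. The differences of the 9 genes between Tet2 KO and Tet2 WT are therefore given as a description, with no p-value, and which of them passed the threshold used for all genes is likewise only described.

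Integrins are paired transmembrane receptors for matrix proteins and for ligands on other cells. A kindlin binds the tail of the beta subunit and, together with talin, switches the receptor to its high-affinity state. Integrin-linked kinase is a pseudokinase that binds a PINCH protein at one end and a parvin at the other, and the parvin carries the assembly to actin. Each family has members with different ranges: kindlin-3 (Fermt3) and gamma-parvin (Parvg) are mainly proteins of blood cells, kindlin-2 (Fermt2) and alpha-parvin (Parva) are broad and prominent in fibroblasts and muscle, beta-parvin (Parvb) is best known from heart and skeletal muscle, and kindlin-1 (Fermt1) belongs to epithelia. Loss of kindlin-3 in people causes a leukocyte adhesion deficiency with bleeding, because blood cells and platelets then cannot activate their integrins.

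RNA-seq had been made from cardiac macrophages sorted out of digested mouse hearts. The cells of both groups are given as derived from donor haematopoietic progenitors on the C57BL/6J strain. In the Tet2 KO group the macrophages are given as deficient in Tet2, which encodes a dioxygenase that oxidises 5-methylcytosine at CpG sites, and in the Tet2 WT group they were Tet2 sufficient. There were 3 libraries per genotype, of 37349505, 53586246 and 55771087 estimated counts in Tet2 KO, against 49883028, 53586473 and 51477060 in Tet2 WT. The sort gate, the ages and sexes of the hosts, the deleted part of Tet2, any Cre or promoter used to delete it, and whether the libraries were pools or separate animals are not given in the sources used here. If the libraries of a genotype share animals, every p-value below measures technical spread only.

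Tet2 itself stood at 81.2, 82.6 and 78.2 CPM (counts scaled to a common library size) in Tet2 KO, against 57.5, 76.1 and 60.8 CPM in Tet2 WT, which does not check the knockout, since the deleted part is not named. Its log2 fold change was 0.32 ± 0.14 (SE; edgeR adjusted p = 0.159), and with length-scaled TPM counts it was 0.43 and passed (edgeR adjusted p = 0.0457). The pan-macrophage markers, 16 genes such as Adgre1 and Csf1r, summed to between 34239 and 39655 CPM in Tet2 KO, and between 21747 and 29601 CPM in Tet2 WT. Of these 16, 12 passed the edgeR threshold as higher in Tet2 KO, where 6.11% of all genes tested passed as higher and 10.1% as lower. Of 18 fibroblast markers, all 18 were lower in Tet2 KO and none was at 0 in all libraries. Their sum was 4088, 2147 and 3806 CPM in Tet2 KO libraries 1, 2 and 3 and 31266, 16796 and 26610 CPM in Tet2 WT libraries 1, 2 and 3, a ratio of Tet2 WT over Tet2 KO of 7.44 (two-sided exact permutation test, p = 0.1, the lowest value possible with 3 libraries a group). In RNA from sorted populations, fewer cells of a type and less RNA per cell cannot be told apart.

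Among the 9 genes, Parvg and Fermt3 were higher in Tet2 KO and Parva, Fermt2 and Lims2 were lower, past the edgeR threshold of an adjusted p of 0.05. Ilk, Lims1, Parvb and Fermt1 did not pass it. All 9 genes cleared the filter on low counts. The 5 that passed stand against 16.2% of the 16386 genes tested, the 2 higher against 6.11% and the 3 lower against 10.1%, and nothing is read from these shares because the list was chosen on this contrast. In CPM the groups did not overlap for 6 of the 9, the same 5 and Lims1, against 34.5% of the genes tested. The log2 fold changes ran from -2.79 to 1.44 with a median of 0.22, and the median over all genes tested was 0.00. The shares move with single libraries: 2653 genes passed in all, but 1382 without Tet2 WT library 1 and 1750 without Tet2 KO library 3.

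**Figure D1:**
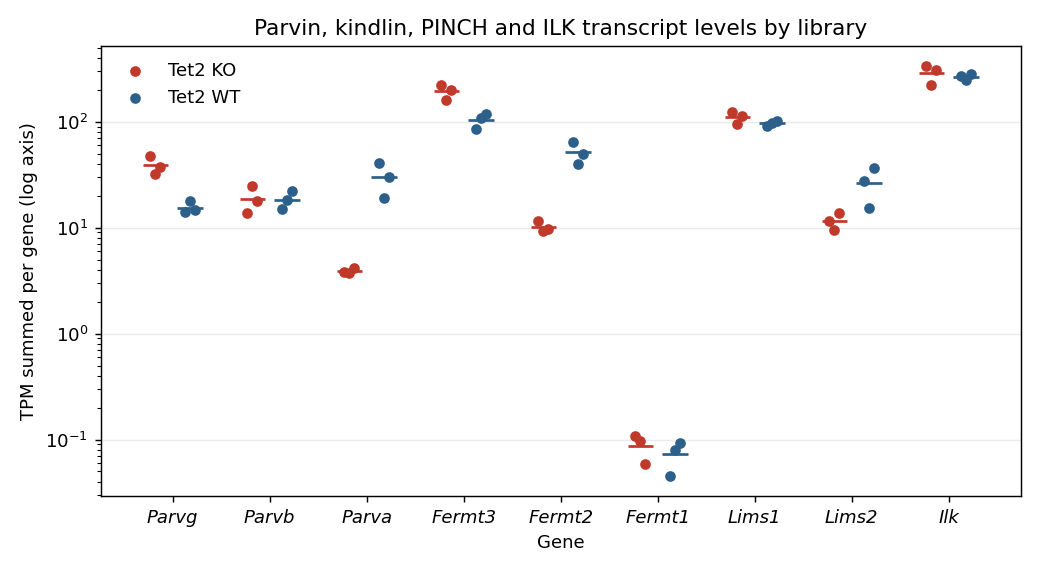
TPM (counts per effective transcript length, scaled to a common library total; log axis) summed per gene for the 9 genes, with 1 point per library and a bar at the mean of 3, Tet2 KO in red on the left of each gene and Tet2 WT in blue on the right. Parvg and Fermt3 lie higher in Tet2 KO, Parva, Fermt2 and Lims2 lie lower, each without overlap, and Fermt1 lies below 0.11 TPM in every library.

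The starts of the genes differ in CpG content. Parvg (ENSMUSG00000022439.9) lies on GRCm38 chromosome 15 from 84324026 to 84342978 on the plus strand, directly after Parvb (ENSMUSG00000022438.6; 84232043 to 84315688, plus strand). Fermt3 (ENSMUSG00000024965.9) lies on chromosome 19 from 6998958 to 7019469 and Fermt2 (ENSMUSG00000037712.16) on chromosome 14 from 45458795 to 45530118, both on the minus strand. The 250 bases before the start of transcription that RefSeq gives are shown for these 4 genes, the neighbouring parvins and the kindlins that moved in opposite directions, because CpG is the dinucleotide on which Tet2 acts. The sequences are from RefSeq on GRCm38.p6, written 5′ to 3′ on the gene's own strand, with each CpG in capitals. For Fermt2 the RefSeq start lies inside the gene as GENCODE annotates it, so the window overlaps the first bases of that annotation. The Parvg window lies wholly inside the annotated gene, since a non-coding Parvg transcript, ENSMUST00000127551.1, begins before it at 84324026.
Parvg, chr15:84324470-84324719, plus strand: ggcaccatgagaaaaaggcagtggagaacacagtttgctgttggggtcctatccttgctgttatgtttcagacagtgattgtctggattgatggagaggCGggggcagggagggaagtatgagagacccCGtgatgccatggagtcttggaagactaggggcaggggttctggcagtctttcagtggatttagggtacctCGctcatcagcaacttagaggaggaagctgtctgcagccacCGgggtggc
Parvb, chr15:84231793-84232042, plus strand: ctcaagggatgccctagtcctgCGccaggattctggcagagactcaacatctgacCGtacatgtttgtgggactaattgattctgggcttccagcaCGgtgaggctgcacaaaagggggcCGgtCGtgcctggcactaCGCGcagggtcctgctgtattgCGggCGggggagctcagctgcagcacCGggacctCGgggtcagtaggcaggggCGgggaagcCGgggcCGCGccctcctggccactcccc
Fermt3, chr19:7019470-7019719, minus strand: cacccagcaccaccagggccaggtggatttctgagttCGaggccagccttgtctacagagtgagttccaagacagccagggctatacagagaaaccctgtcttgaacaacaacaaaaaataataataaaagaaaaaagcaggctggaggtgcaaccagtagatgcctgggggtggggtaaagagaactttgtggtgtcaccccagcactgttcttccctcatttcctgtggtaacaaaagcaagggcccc
Fermt2, chr14:45530066-45530315, minus strand: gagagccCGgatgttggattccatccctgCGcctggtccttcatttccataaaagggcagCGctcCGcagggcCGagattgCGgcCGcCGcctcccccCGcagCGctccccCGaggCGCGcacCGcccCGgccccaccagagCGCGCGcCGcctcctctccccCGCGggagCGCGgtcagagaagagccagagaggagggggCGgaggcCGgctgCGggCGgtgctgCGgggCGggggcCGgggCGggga
The Parvg window holds 4 CpG and the Fermt3 window 1, whereas Parvb has 15 and Fermt2 31. Over 32851 mouse promoter windows of the same length the median was 6 CpG (quartiles 2 and 16), 18.8% had at most 1 and 5.19% had 31 or more. A second Parvg start has 10 CpG in its window (chr15:84325869-84326118), Lims1 has 3 windows with 28, 1 and 2, Ilk has 2 windows with 22 and 32, and the Fermt1 window has 5. The main Parvg transcript, ENSMUST00000023074.8, begins at 84324720, at the end of the Parvg window printed above. Of the 9 genes, 7 were matched to a promoter entry, all but Parva and Lims2. Methylation was not measured in these samples.

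Gamma-parvin was the member with the largest rise. In TPM, which corrects for transcript length, Parvg stood at 47.9, 32.2 and 37.2 in Tet2 KO libraries 1, 2 and 3, against 14.0, 17.7 and 14.6 TPM in Tet2 WT libraries 1, 2 and 3. Every Tet2 KO library was above every Tet2 WT library, and the lowest Tet2 KO value and the highest Tet2 WT value were both in libraries numbered 2. The log2 fold change from the counts was 1.44 ± 0.17 (SE, n = 3 each), a 2.72-fold difference. Among 955 well-expressed protein-coding genes that passed as higher without overlap, Parvg ranked 10, between Ifi44 at 1.45 and Plxnb3 at 1.43, and among all 1001 genes that passed as higher it ranked 35. A transcript of 2619 bases, ENSMUST00000023074.8, carried 83.2% of Parvg TPM in Tet2 KO, against 88.2% in Tet2 WT. None of the 31-base words in Parvg transcripts occurs in a transcript of another gene.

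Alpha-parvin, the broad member that links integrin-linked kinase to actin in most adherent cells, moved the other way. Parva (ENSMUSG00000030770.15; chromosome 7, 112427505 to 112591692, plus strand) stood at 3.80, 3.77 and 4.15 TPM in Tet2 KO, against 40.9, 19.1 and 30.3 TPM in Tet2 WT. The 3 Tet2 KO libraries lay close together and far below all of Tet2 WT, where library 1 was high and library 2 low. The log2 fold change was -2.79 ± 0.25 (SE), which is 6.91-fold lower in Tet2 KO.

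Beta-parvin showed no such separation. Parvb stood at 13.6, 24.7 and 18.0 TPM in Tet2 KO, against 14.9, 18.3 and 22.0 TPM in Tet2 WT, so the groups overlapped (log2 fold change 0.20 ± 0.27, SE). Most of this level, by TPM, came from a transcript annotated as non-coding. A retained-intron transcript of 438 bases, ENSMUST00000131158.1, held 78.6% of Parvb TPM in Tet2 KO, against 75.0% in Tet2 WT, while the coding transcript ENSMUST00000023072.6 held 13.9% in Tet2 KO and 13.8% in Tet2 WT. Coding transcripts of Parvb reached 2.06, 3.59 and 2.15 TPM in Tet2 KO, against 2.13, 2.91 and 2.61 TPM in Tet2 WT. By estimated counts the longer coding transcript had more, at 202, 544 and 316 in Tet2 KO, against 80.6, 209 and 148 for the short one in the same libraries. The short transcript shares 17.9% of its 31-base words with other genes, so part of its level depends on how reads were divided.

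The make-up of the parvin family differed while the sum of its transcripts did not separate the genotypes. Of the TPM of coding parvin transcripts, Parvg made up 87.2%, 81.4% and 84.4% in Tet2 KO, against 22.6%, 43.7% and 28.9% in Tet2 WT. Parva made up 8.15%, 8.27% and 10.1% in Tet2 KO, against 73.4%, 48.3% and 65.4% in Tet2 WT. Parvg was thus the main parvin transcript in every Tet2 KO library and Parva in every Tet2 WT library. The summed coding TPM of the family was 44.8, 34.9 and 39.1 in Tet2 KO, against 52.8, 36.6 and 45.6 in Tet2 WT, with overlap. The log2 ratio of Parvg to Parva plus Parvb, which does not depend on scaling between libraries, differed by 2.43 ± 0.47 (SE) between Tet2 KO and Tet2 WT in TPM over all transcripts and by 3.59 ± 0.45 over coding transcripts.

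**Figure D2:**
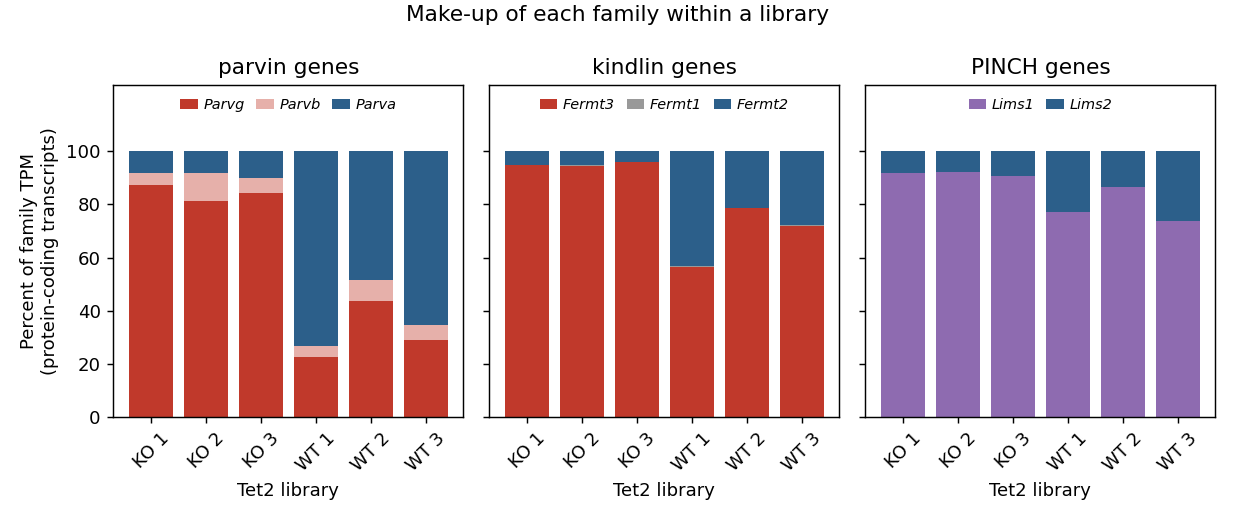
Percent of the TPM of protein-coding transcripts that each gene contributed to the parvin, kindlin and PINCH families, with 1 stacked bar per library, Tet2 KO libraries on the left. Parvg fills 81.4% to 87.2% of the parvin bars in Tet2 KO, against 22.6% to 43.7% in Tet2 WT, and Fermt3 fills at least 94.6% of the kindlin bars in Tet2 KO.

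Kindlin-3, which activates the beta2 integrins of leukocytes, was the most abundant kindlin in both genotypes and was higher in Tet2 KO. Fermt3 stood at 222, 161 and 199 TPM in Tet2 KO, against 84.4, 109 and 118 TPM in Tet2 WT. The groups did not overlap, although Tet2 KO library 2 was the lowest of its group. The log2 fold change was 1.05 ± 0.16 (SE), a 2.07-fold difference. Transcript ENSMUST00000040772.8 carried 76.4% of Fermt3 TPM in Tet2 KO, against 74.6% in Tet2 WT.

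Kindlin-2, the form of fibroblasts and muscle, was lower in Tet2 KO. Fermt2 stood at 11.6, 9.23 and 9.81 TPM in Tet2 KO, against 64.6, 40.0 and 49.6 TPM in Tet2 WT. Each Tet2 WT library was above each Tet2 KO library, with Tet2 WT library 1 the highest and library 2 the lowest of that group. The log2 fold change was -2.13 ± 0.29 (SE), which is 4.39-fold lower in Tet2 KO.

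The epithelial kindlin had few counts. Fermt1 (ENSMUSG00000027356.8; chromosome 2, 132904389 to 132945906, minus strand) had 14.0, 19.2 and 11.3 estimated counts in Tet2 KO, against 8.17, 15.4 and 16.4 in Tet2 WT. These ranges overlapped, and the log2 fold change was 0.44 ± 0.62 (SE). Of 8 epithelial markers, Krt5, Krt14 and Cldn4 were at 0 after rounding in all 6 libraries. The sum of the list stayed between 0.0809 and 1.51 CPM in Tet2 KO, and between 0.262 and 1.02 CPM in Tet2 WT.

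Among coding kindlin transcripts Fermt3 made up 94.9%, 94.6% and 96.0% in Tet2 KO, against 56.6%, 78.6% and 72.0% in Tet2 WT. The remainder was almost all Fermt2. The log2 ratio of Fermt3 to Fermt2 in TPM was 4.26, 4.12 and 4.34 in Tet2 KO, against 0.39, 1.45 and 1.25 in Tet2 WT, a difference of 3.21 ± 0.33 (SE) without overlap. The summed level of the family was higher in every Tet2 KO library than in any Tet2 WT library, at 233, 170 and 209 TPM over all transcripts against 149, 149 and 168 TPM in Tet2 WT.

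The PINCH adaptors bind integrin-linked kinase and, through Ras suppressor protein Rsu1, reach further signalling partners. Lims1 (ENSMUSG00000019920.17; chromosome 10, 58323466 to 58424691, plus strand) encodes PINCH1, the form present in most cells, and stood at 123, 96.1 and 114 TPM in Tet2 KO, against 91.2, 97.1 and 101 TPM in Tet2 WT. The TPM ranges overlapped through Tet2 KO library 2, whereas the CPM ranges did not, at 148 to 157 CPM in Tet2 KO, against 122 to 140 CPM in Tet2 WT. The log2 fold change was 0.22 ± 0.12 (SE) and did not pass the threshold.

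Lims2 (ENSMUSG00000024395.9; chromosome 18, 31922290 to 31958619, plus strand) encodes PINCH2, a form with a narrower range. It stood at 11.6, 9.45 and 13.7 TPM in Tet2 KO, against 27.6, 15.3 and 36.6 TPM in Tet2 WT. The groups did not overlap, but Tet2 WT library 2 lay close to the highest Tet2 KO library. The log2 fold change was -1.30 ± 0.27 (SE), 2.46-fold lower in Tet2 KO. Lims1 stayed the main PINCH gene in all 6 libraries, with 92.0%, 92.2% and 90.7% of coding PINCH TPM in Tet2 KO, against 77.1%, 86.6% and 73.7% in Tet2 WT.

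Integrin-linked kinase, the hub of the assembly, had the highest mean TPM of the 9 genes in both genotypes. Ilk (ENSMUSG00000030890.16; chromosome 7, 105736592 to 105742925, plus strand) stood at 332, 224 and 305 TPM in Tet2 KO, against 270, 246 and 283 TPM in Tet2 WT. The ranges overlapped, since Tet2 KO library 2 was the lowest of all 6, and the log2 fold change was 0.26 ± 0.14 (SE). Without Tet2 KO library 2 it was 0.39 ± 0.11 and passed the threshold. Its level is uncertain: 76.7% of its exonic bases are overlapped on the opposite strand by Taf10, a subunit of the transcription factor TFIID, and 12.9% by Rrp8, and the sources used here do not give the strand setting of the counting. Taf10 was at 156, 155 and 126 TPM in Tet2 KO, against 143, 150 and 144 TPM in Tet2 WT.

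Set against its partners in TPM, Ilk overlapped between the genotypes. Its log2 ratio to the parvin sum was 2.35, 1.88 and 2.36 in Tet2 KO, against 1.95, 2.16 and 2.08 in Tet2 WT. Its log2 ratio to the PINCH sum was 1.31, 1.08 and 1.26 in Tet2 KO, against 1.18, 1.13 and 1.04 in Tet2 WT. Both TPM ratios overlapped, with differences of 0.13 ± 0.17 and 0.10 ± 0.08 (SE). In estimated counts, which weight long transcripts more, the log2 ratio of Ilk to the parvin sum did not overlap, at 1.89, 1.64 and 1.94 in Tet2 KO, against 0.90, 1.45 and 1.23 in Tet2 WT (difference 0.63 ± 0.19, SE).

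Ordered by mean TPM, the Tet2 KO libraries ran Ilk, Fermt3, Lims1, Parvg, Parvb, Lims2, Fermt2, Parva and Fermt1. Only the neighbours Parvb and Lims2, and Lims2 and Fermt2, overlapped over the 3 Tet2 KO libraries. In Tet2 WT the order was Ilk, Fermt3, Lims1, Fermt2, Parva, Lims2, Parvb, Parvg and Fermt1, where Fermt3 and Lims1 overlapped and the genes from Fermt2 to Parvg each overlapped the next. Parvg thus stood in place 4 in Tet2 KO and in place 8 in Tet2 WT, and Fermt2 in place 7 in Tet2 KO and in place 4 in Tet2 WT. Counted over coding transcripts alone, Parvb stood in place 8 in both genotypes. In Tet2 KO that put Fermt2 in place 6 and Parva in place 7, and Ilk then overlapped Fermt3. In Tet2 WT, Parvg stood in place 7, and Lims1 at 92.4 ± 5.21 TPM lay above Fermt3 at 79.8 ± 11.4 TPM without overlap (SD, n = 3).

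Parva and Fermt2 followed the fibroblast markers across the Tet2 WT libraries. In CPM, Parva was 11.4, 11.1 and 13.2 in Tet2 KO, against 112, 54.8 and 79.7 in Tet2 WT, and Fermt2 was 14.3, 7.63 and 12.9 in Tet2 KO, against 69.1, 36.9 and 46.6 in Tet2 WT. Within Tet2 WT both genes and the fibroblast sum had the same order, library 1 above library 3 above library 2. Parvg was highest in the Tet2 WT library with the lowest fibroblast sum, at 28.8 CPM in library 2 against 21.2 and 22.0 CPM in libraries 1 and 3. Fermt3 and Lims2 did not follow this order, with Fermt3 at 149, 195 and 197 CPM and Lims2 at 29.7, 17.0 and 36.8 CPM in Tet2 WT libraries 1, 2 and 3, each highest in library 3. Within Tet2 KO, library 2 had the lowest fibroblast sum and also the lowest Fermt2, Lims2, Parva, Parvg and Fermt3. The fibroblast sum, Fermt2, Parvg and Fermt3 were highest in Tet2 KO library 1, whereas Parva and Lims2 were highest in library 3. These are 3 libraries a group, and the part of fibroblast RNA in the differences was not tested.

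**Figure D3:**
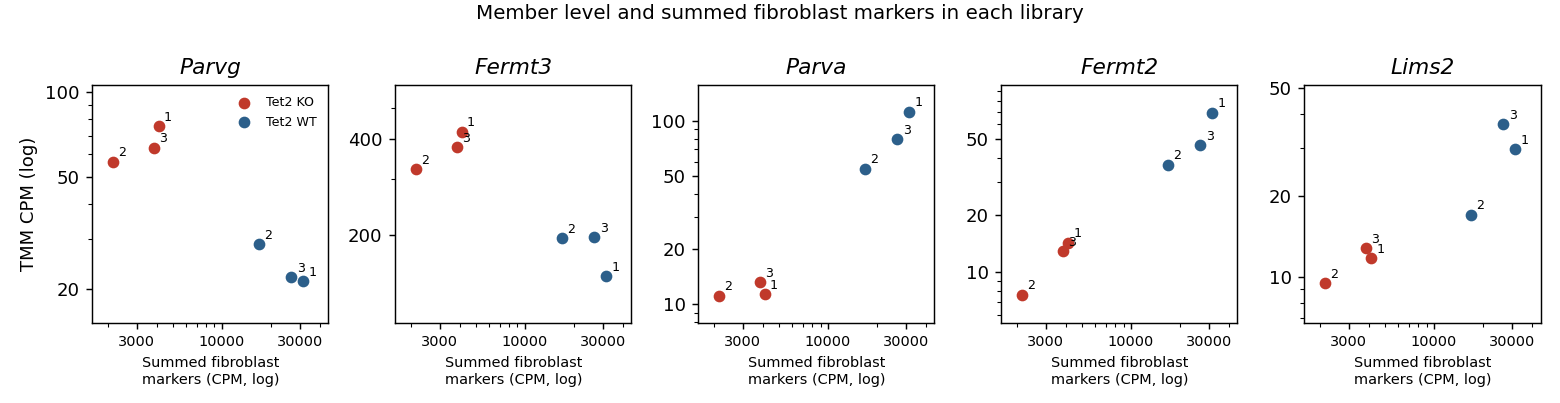
CPM of 5 genes (log axis) against the summed CPM of 18 fibroblast markers (log axis), with 1 point per library, numbered 1 to 3, Tet2 KO in red and Tet2 WT in blue. The Tet2 KO libraries lie between 2147 and 4088 CPM of fibroblast markers and the Tet2 WT libraries between 16796 and 31266, with Parvg and Fermt3 higher at the low end and Parva, Fermt2 and Lims2 higher at the high end.

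Markers of other cells were also measured, and their calls stand beside 6.11% higher and 10.1% lower over all genes tested. Of 10 markers of pericytes and smooth muscle, in which Parva and Fermt2 are also abundant, 2 were lower in Tet2 KO, and the list summed to between 35.1 and 66.2 CPM in Tet2 KO, and between 130 and 210 CPM in Tet2 WT. Platelets carry much Fermt3, and their 10 markers summed to between 16.1 and 17.9 CPM in Tet2 KO, and between 12.6 and 17.9 CPM in Tet2 WT. B cell markers, of which 3 of the 5 tested were higher, summed to between 572 and 1000 CPM in Tet2 KO, and between 460 and 589 CPM in Tet2 WT. Of 12 endothelial markers 2 were lower, with sums between 166 and 252 CPM in Tet2 KO, and between 238 and 433 CPM in Tet2 WT. None of 10 cardiomyocyte markers passed, and their sums lay between 98.8 and 164 CPM in Tet2 KO, and between 131 and 152 CPM in Tet2 WT. T and NK cell markers summed to at most 13.3 CPM and neutrophil markers to at most 3.24 CPM in any library. Ncr1 and Elane, defining markers of NK cells and immature neutrophils, were at 0 after rounding in all libraries. The part of these cells in the differences was not tested.

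When the libraries were scaled to the pan-macrophage markers instead of all genes, the median gene shifted by -0.70 on the log2 scale and far fewer genes were higher in Tet2 KO. Only 0.122% of genes, 20 in number, then passed as higher, and Parvg was one of them with a log2 fold change of 0.75 ± 0.19 (SE). The list was drawn up because of the large rise of Parvg, so its place among these genes gives no separate support. Fermt3 was at 0.36 ± 0.15 and did not pass. Parva, Fermt2 and Lims2 were at -3.54, -2.90 and -2.04 and passed as lower, as did 41.8% of genes. Ilk and Lims1 turned to -0.45 and -0.47 and passed as lower.

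The partners of the complex were followed in a list of 45 adaptors and regulators, all of them tested. In Tet2 KO 5 passed as higher, 9 as lower and 31 passed in neither direction, with a median log2 fold change of 0.05 against 0.00 over all genes. Over all genes tested 6.11% passed as higher and 10.1% as lower. The higher set held Rac2, a small GTPase of blood cells, at 281 ± 29.9 CPM in Tet2 KO, against 160 ± 27.5 CPM in Tet2 WT (SD, n = 3 each; log2 fold change 0.81 ± 0.15, edgeR adjusted p = 0.00639). Fyb, the adaptor ADAP that couples immune receptors to integrins, was at 0.71 ± 0.15 (edgeR adjusted p = 0.0104), and its binding partner Skap2 was at 0.57 ± 0.16 (edgeR adjusted p = 0.0324). Leupaxin, the paxillin relative of blood cells encoded by Lpxn, was at 0.66 ± 0.15 (edgeR adjusted p = 0.013), and Ptk2b, which encodes the kinase Pyk2, at 0.62 ± 0.15 (edgeR adjusted p = 0.0211). Scaled to the pan-macrophage markers none of the 45 was higher and 27 were lower, beside 0.122% higher and 41.8% lower over all genes. Lpxn, Ptk2b and Skap2 changed sign.

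Falls in the list reached further from 0. Tgfb1i1, which encodes the paxillin relative Hic-5, stood at 5.28 ± 1.21 CPM in Tet2 KO, against 32.4 ± 9.66 CPM in Tet2 WT (SD, n = 3 each; log2 fold change -2.62 ± 0.27, edgeR adjusted p = 0.000249). The tensin gene Tns2 was at -2.57 ± 0.27 (edgeR adjusted p = 0.000326) and the second talin gene, Tln2, at -2.12 ± 0.36 (edgeR adjusted p = 0.00416). Bcar1, which encodes the docking protein p130Cas, was at -1.46 ± 0.29 (edgeR adjusted p = 0.00791), and Kank2, a talin-binding protein gene, at -1.19 ± 0.17 (edgeR adjusted p = 0.00164). Vinculin, which reinforces the talin link to actin, was lower as well (Vcl, -1.06 ± 0.23, edgeR adjusted p = 0.0135), and so was focal adhesion kinase (Ptk2, -0.53 ± 0.13, edgeR adjusted p = 0.0244). Several partners did not pass: the main talin gene Tln1 was at 0.31 ± 0.18 (edgeR adjusted p = 0.283), Pxn, which encodes paxillin, at 0.47 ± 0.17 (edgeR adjusted p = 0.0988), the parvin-binding exchange factor gene Arhgef6 at 0.45 ± 0.14 (edgeR adjusted p = 0.0515), and Rsu1 at 0.05 ± 0.15 (edgeR adjusted p = 0.856).

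Some of these calls were lost when 1 library was left out, which also leaves fewer libraries to test. Without Tet2 WT library 1 the list held 7 called genes instead of 14. Vcl did not pass without Tet2 KO library 3 or Tet2 WT library 1 (edgeR adjusted p up to 0.0743), and Lpxn did not pass without Tet2 WT library 1 or 3 (up to an edgeR adjusted p of 0.055). Ptk2b was lost without Tet2 KO library 3 or Tet2 WT library 1 or 3 (edgeR adjusted p up to 0.0832), and Ptk2 without Tet2 KO library 1 or Tet2 WT library 1 or 3 (edgeR adjusted p up to 0.108). Skap2 kept its call only without Tet2 KO library 2 or Tet2 WT library 2 (edgeR adjusted p up to 0.128 otherwise). Pxn passed without Tet2 WT library 3 (edgeR adjusted p = 0.0241), and Arhgef6 passed without Tet2 KO library 2 or Tet2 WT library 2 (edgeR adjusted p down to 0.0296). With limma on log2 TPM, Ptk2b and Skap2 did not pass (limma adjusted p of at least 0.104 for Ptk2b and 0.102 for Skap2), nor did Skap2 with the replicate number as a block (edgeR adjusted p = 0.0719). Arhgef6 passed with DESeq2 (adjusted p = 0.0261) and with no filter on low counts (edgeR adjusted p = 0.0462).

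The integrins whose tails these proteins bind held genes that passed in both directions. Of 26 integrin subunits 24 were tested, of which 5 passed as higher in Tet2 KO, 3 as lower and 16 in neither direction (median log2 fold change -0.02), beside 6.11% higher and 10.1% lower over all genes. The beta2 subunit of leukocyte integrins, a partner of kindlin-3, was higher, with Itgb2 at 431 ± 13.9 CPM in Tet2 KO, against 257 ± 46.3 CPM in Tet2 WT (SD, n = 3 each; log2 fold change 0.75 ± 0.15, edgeR adjusted p = 0.00918). Its partner chain Itgam, the alpha chain of Mac-1, was at 0.49 ± 0.15 (edgeR adjusted p = 0.046). Itgb7, which pairs with Itga4 on lymphocytes and other leukocytes, was at 0.96 ± 0.19 (edgeR adjusted p = 0.00768), the laminin-receptor chain Itga6 at 0.74 ± 0.16 (edgeR adjusted p = 0.0115) and Itga9 at 0.42 ± 0.12 (edgeR adjusted p = 0.0453). Scaled to the pan-macrophage markers none was higher and 9 were lower, beside 0.122% higher and 41.8% lower over all genes. Itga9 and Itgam changed sign.

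Lower in Tet2 KO were Itgb8, which encodes a subunit of a TGF-beta-activating integrin, at -3.61 ± 0.67 (edgeR adjusted p = 0.0073), and Itga11, a collagen-receptor chain of fibroblasts, at -2.83 ± 0.55 (edgeR adjusted p = 0.0102). Itga2b, the platelet chain and also one of the 10 platelet markers, was at -2.43 ± 0.58 (edgeR adjusted p = 0.0182), but at 0.264 ± 0.0993 CPM in Tet2 KO, against 1.42 ± 0.606 CPM in Tet2 WT (SD, n = 3 each). The beta1 subunit, the common partner of kindlin-2, did not separate the genotypes, with Itgb1 at 656 ± 76.3 CPM in Tet2 KO, against 626 ± 25.6 CPM in Tet2 WT (SD, n = 3 each; log2 fold change 0.07 ± 0.13, edgeR adjusted p = 0.804). Itgb3 was at -1.21 ± 0.46 and did not pass (edgeR adjusted p = 0.11), except without Tet2 WT library 2 (edgeR adjusted p = 0.00982).

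Of the 8 integrin calls, 4 were made without Tet2 KO library 3 or without Tet2 WT library 1, and 5 without Tet2 WT library 3. Itgam lost its call without any 1 library except Tet2 WT library 2 (edgeR adjusted p up to 0.174). Itga9 lost it without Tet2 KO library 3 or any Tet2 WT library (edgeR adjusted p up to 0.187), Itga6 without Tet2 KO library 3 or Tet2 WT library 1 (edgeR adjusted p up to 0.056), and Itga2b without Tet2 KO library 3 or Tet2 WT library 1 or 3 (edgeR adjusted p up to 0.102). With limma on log2 TPM, Itga6, Itga9 and Itgam did not pass (limma adjusted p of at least 0.0565, 0.634 and 0.141), and with the replicate number as a block Itga9 and Itgam did not (edgeR adjusted p = 0.0578 and 0.0525). Itga9 was also lost with length-scaled TPM counts (edgeR adjusted p = 0.35), and Itga9 and Itga11 with no filter on low counts (edgeR adjusted p = 0.0581 and 0.102), whereas Itgb3 passed with DESeq2 (adjusted p = 0.0283) and as lower when scaled to the pan-macrophage markers (edgeR adjusted p = 0.0127). The log2 fold changes of Itga11 and Itgb8 were -3.80 and -4.20 without Tet2 KO library 3.

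**Figure D4:**
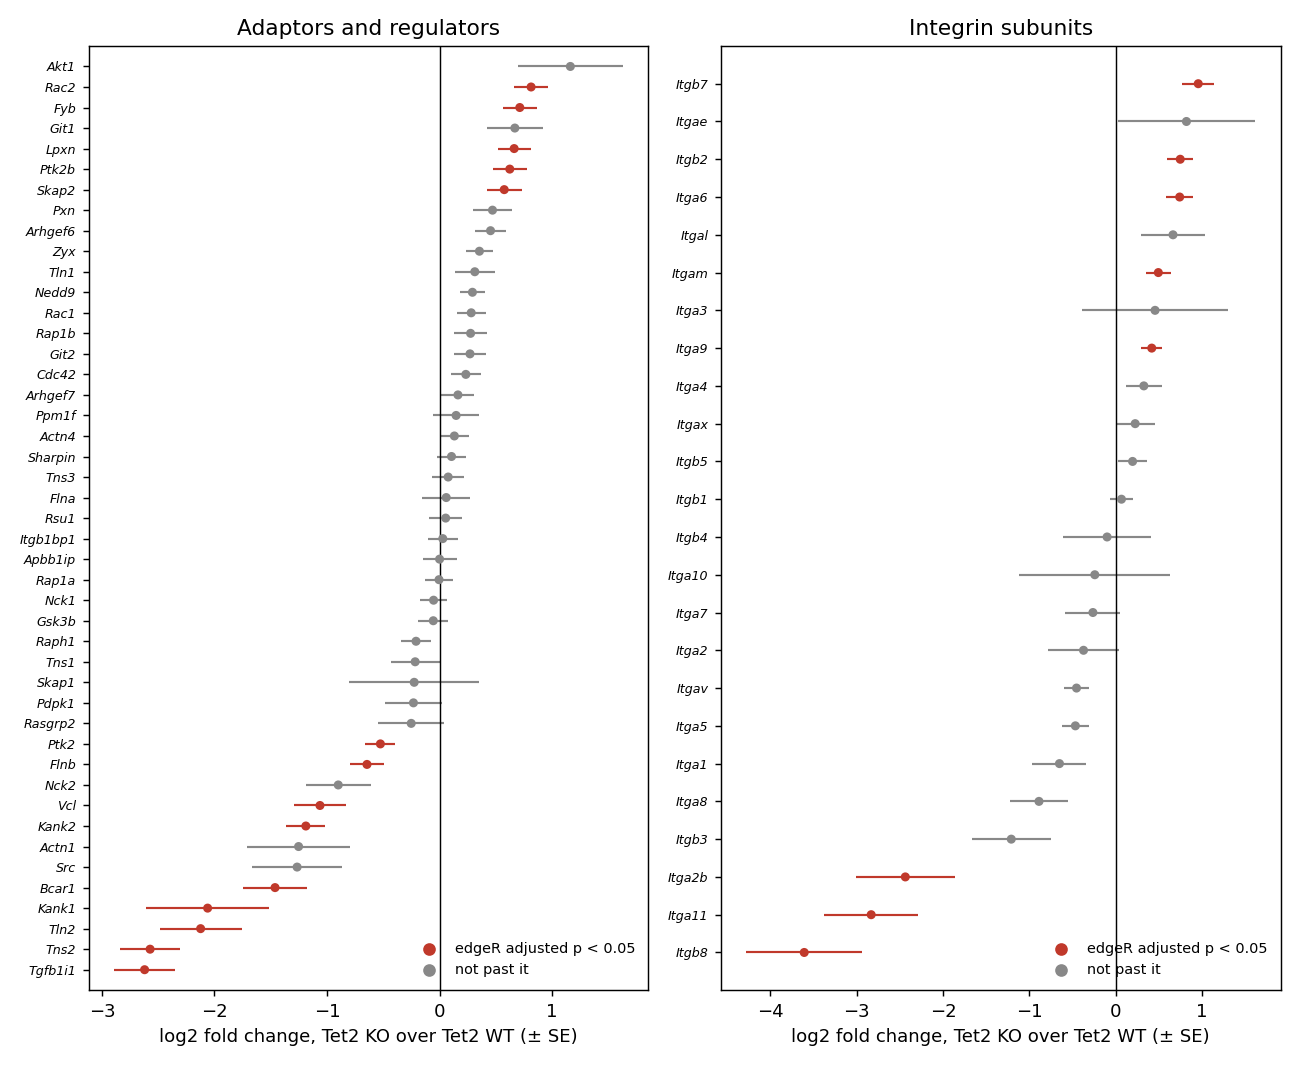
Log2 fold changes of Tet2 KO over Tet2 WT with standard errors for the 45 adaptors and regulators and the 24 integrin subunits tested, ordered by value, with red points past an edgeR adjusted p of 0.05 and grey points not past it. The falls reach -2.62 for Tgfb1i1 and -3.61 for Itgb8, whereas the red points on the higher side reach 0.81 for Rac2 and 0.96 for Itgb7.

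The contrast between blood-cell and broad paralogues was examined beyond the 9 genes in 15 further pairs, of which some genes are also in the lists above. These pairs were chosen with earlier results of the data known, so the counts below are a description and give no separate support. Tln1, set against Tln2, was counted with the blood-cell genes although it is the main talin gene and not restricted to blood cells. Tln1 did not pass, but its pair is part of every count below. Of the 15 blood-cell genes 12 passed as higher in Tet2 KO, 0 as lower and 3 in neither direction, with a median log2 fold change of 0.75. Of the 15 broad partners 1 passed as higher, Vav3, 7 as lower and 7 in neither direction, with a median of -0.10. The shares over all genes tested were 6.11% higher and 10.1% lower. In 15 of 15 pairs the fold change of the blood-cell gene was above that of its partner. In 13 the log2 TPM ratio within a library was higher in all 3 Tet2 KO libraries than in any Tet2 WT library. The share over all genes tested is of another kind: for CPM of single genes, in either direction, 34.5% did not overlap. No such share was computed for ratios of pairs. Scaled to the pan-macrophage markers, 0 of the blood-cell genes were higher and 11 of the broad partners were lower. Under that scaling 0.122% of all genes tested were higher and 41.8% lower.

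In 5 pairs the genes passed in opposite directions. Ptk2b and Ptk2 were given above. Nckap1l, which encodes the blood-cell form of a WAVE complex subunit, was at 0.81 ± 0.15 (edgeR adjusted p = 0.00542) and Nckap1 at -2.99 ± 0.27 (edgeR adjusted p = 0.0002). Hcls1, the blood-cell relative of cortactin, was at 0.76 ± 0.12 (edgeR adjusted p = 0.00235), and the cortactin gene Cttn at -2.25 ± 0.25 (edgeR adjusted p = 0.000408). The plastin genes Lcp1 and Pls3, which encode actin bundlers, were at 0.79 ± 0.19 (edgeR adjusted p = 0.0208) and -1.31 ± 0.20 (edgeR adjusted p = 0.00232). The phospholipase genes Plcg2 and Plcg1 were at 0.89 ± 0.15 (edgeR adjusted p = 0.00307) and -1.05 ± 0.26 (edgeR adjusted p = 0.024). Lcp1 lost its call without Tet2 KO library 1 or 3 or Tet2 WT library 1 or 3 (edgeR adjusted p up to 0.0875) and with the replicate number as a block (edgeR adjusted p = 0.0688), and Plcg1 without Tet2 KO library 2 or 3 or Tet2 WT library 1 or 3 (edgeR adjusted p up to 0.11).

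**Figure D5:**
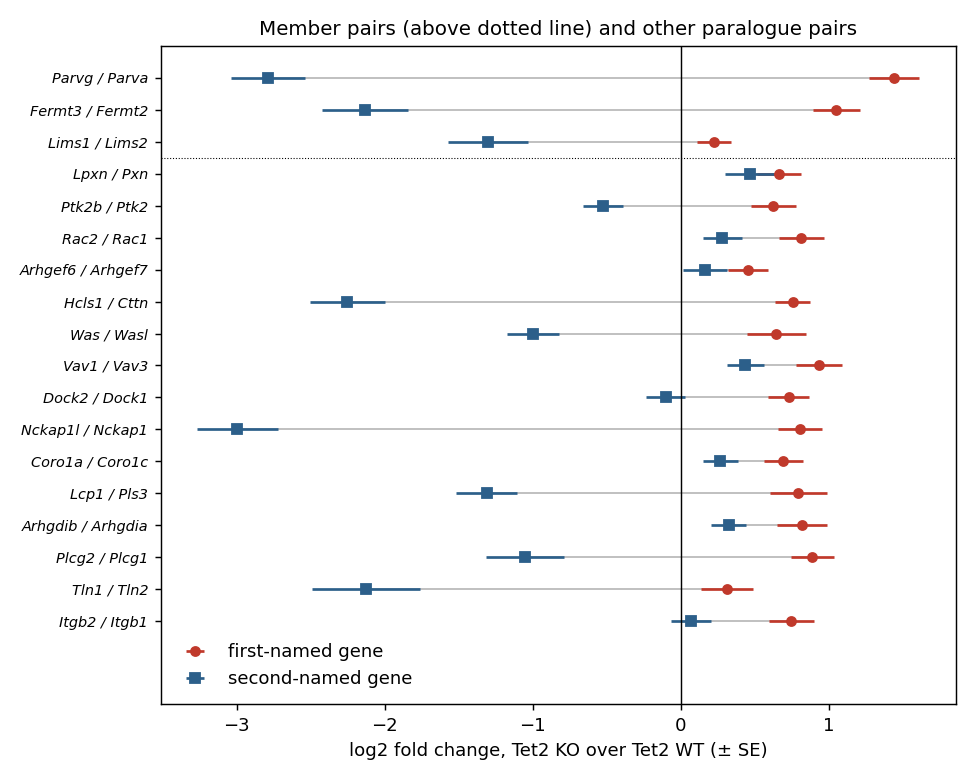
Log2 fold changes of Tet2 KO over Tet2 WT with standard errors for 3 pairs among the 9 genes (above the dotted line) and 15 further pairs, the first-named gene in red and the second-named in blue. The red point lies to the right of the blue one in every pair, from the wide gap of Parvg at 1.44 and Parva at -2.79 to the narrow one of Lpxn at 0.66 and Pxn at 0.47.

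The genes with library profiles closest to Parvg were found among 10979 protein-coding genes by the root mean square difference of centred log2 CPM over the 6 libraries. They were Ccnb1, which encodes cyclin B1 (0.0913), Gm15448 (0.105), the B cell receptor component Cd79b (0.165), the mitotic activator Cdc20 (0.176) and the chemokine receptor Cxcr3 (0.184). Fermt3 ranked 25 in likeness to Parvg, at 0.227. The profiles closest to Fermt2 were those of Map1b, a microtubule-associated protein gene (0.0943), Bace2 (0.101), Galnt15 (0.102), Cdc42ep5 (0.102) and Cdon (0.105), while Parva ranked 319 at 0.391 and Lims2 629 at 0.542. Because the distance covers libraries of both genotypes, a close profile must have a similar fold change, and these ranks give no separate evidence. The 5 genes closest to Parvg had log2 fold changes of 1.17 to 1.42, and the 5 closest to Fermt2 had log2 fold changes of -2.56 to -2.26.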

How the data were processed

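The 6 libraries were analysed from the deposited kallisto tables, which per the file headers give an estimated count and a TPM value for each transcript. The submitters' processing notes name Trim Galore 0.6.4, kallisto 0.44.0 and the build GRCm38. Of 118783 transcripts, 116622 (98.2%) matched GENCODE M21 and were summed to 35865 genes; the 2161 unmatched, with at most 0.67% of a library's counts, were left out. Expected counts deposited by the authors were rounded, filtered by expression (16386 genes), TMM-scaled and fitted with a single genotype term in edgeR 4.0.16 (R 4.3.3), using its quasi-likelihood test and adjusting p by Benjamini-Hochberg over every tested gene. The standard error of a log2 fold change is its absolute value divided by the square root of F. For a difference of log2 ratios, each group's variance was divided by its number of libraries, and the standard error is the square root of their sum. CPM are TMM-scaled, except marker sums, which use each library's own total. Levels were compared between genes in TPM. DESeq2 1.42.0 and limma 3.58.1 served as alternatives. Libraries of a genotype differed by more than sampling noise (chi-square per gene of at least 68.7).

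The 9 genes, the lists and the pairs were chosen with earlier results of these data known. Named were the 9 genes, Tet2, 11 partners whatever their values, up to 6 genes per list and direction by smallest p, pairs called in opposite directions and the 5 closest profiles; Ifi44, Plxnb3, Vav3, Taf10, Rrp8 and single markers are named beside them as context, after their values were seen. The edgeR test was checked on simulated counts in which few genes changed, so that check does not bear on the choice of scaling.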

Additional observations from a re-analysis of the deposited data

How the results depend on the processing

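The list was chosen on this contrast, so refits of the same 6 libraries describe its values and give no independent support. Parvg, Parva, Fermt2 and Lims2 passed the threshold under all 14 alternatives and Fermt3 under 13, with log2 fold changes of 0.75 to 1.60 for Parvg, -3.54 to -2.49 for Parva, -2.90 to -1.84 for Fermt2, -2.04 to -1.03 for Lims2 and 0.36 to 1.15 for Fermt3. Of all genes, 2653 were called (1001 higher): 6870 (20 higher) when scaled to the pan-macrophage markers, 3382 (1350 higher) with DESeq2, 2147 (452 higher) and 2093 (439 higher) with limma on log2 TPM (pseudocounts 1 and 0.1), and 1382 to 3141 leaving out a library. Adaptors and regulators called were 27 under the pan-macrophage scaling and 7 to 18 leaving out a library. Integrins called were 5 with limma at either pseudocount and 4 to 9 leaving out a library. Blood-cell genes called higher plus broad partners called lower in the pairs came to 11 under the pan-macrophage scaling, against 19. The cause of these changes was not tested. That scaling turned Tet2 to -0.36, Tln1 to -0.35, Pxn to -0.21, Lpxn to -0.018, Ptk2b to -0.043, Rsu1 to -0.66, Arhgef6 to -0.24, Itgb1 to -0.65, Skap2 to -0.13, Itga9 to -0.28 and Itgam to -0.18. Rsu1 was -0.11 and -0.12 with limma and -0.056 to 0.19 leaving out a library; Itgb1 was -0.087 with limma at both pseudocounts and -0.016 to 0.15 leaving out a library. The Parvg ratio difference was 3.43 in counts and 3.59 over coding transcripts, where Parvg ranked 7 in Tet2 WT and Parvb 8 in Tet2 KO and 8 in Tet2 WT. The epithelial log2 ratio ranged from -2.03 to 0.78 leaving out a library.

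With the replicate number as a block, 2347 genes were called (789 higher). Same-numbered Tet2 KO and Tet2 WT libraries correlated at 0.06, 0.13 and 0.04 in their deviations, not all over 0.1. Each library still correlated best with the one of its own number, and differently numbered libraries correlated at -0.085 to 0.024. Whether same-numbered libraries were handled together was not tested. Depth limits the precision of Fermt1, Itga2b and the platelet and epithelial markers.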
